A study of Homo sapiens with 12 samples.

Results

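The receptors for insulin and insulin-like growth factors (IGF), the adaptors that carry their signal, and a set of genes that respond when phosphatidylinositol 3-kinase (PI3K) signalling falls were followed in 3 head and neck squamous cell carcinoma (HNSCC) cell lines under cetuximab. The set was chosen by gene name, with earlier results of these data known. It held 10 genes of the 33514 gene symbols in the count tables: IGF1R and INSR (receptors), IRS1 and IRS2 (adaptors), PIK3R1 and PIK3IP1 (PI3K regulators), and TXNIP, CCNG2, SESN1 and SESN3 (response genes). SCC1, SCC6 and SCC25 are established human HNSCC lines, grown in medium with serum. Cetuximab is an antibody against EGFR, the receptor for epidermal growth factor. For each line, cells given 100 nM cetuximab every day for 5 days were compared with cells given phosphate-buffered saline (PBS) instead, with 2 replicates per group and 12 samples in 6 groups. RNA of single cells was counted as unique molecular identifiers (UMIs), each standing for 1 captured molecule.

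Insulin and IGF receptors activate PI3K through the insulin receptor substrate adaptors, and PI3K in turn activates the kinase AKT. EGFR feeds the same pathway. AKT keeps FOXO transcription factors out of the nucleus, so that when PI3K signalling falls, FOXO factors enter the nucleus and raise the transcription of genes such as IRS2, CCNG2, SESN1, SESN3 and, in several cell types, the receptor genes themselves. The comparison asks whether these genes were higher under cetuximab, in which line and in which replicate.

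The 12 samples held 961 to 2854 cells and 57057402 to 112170073 UMIs each. Median UMIs per cell ranged from 24078.5 to 54864, and differed most between the SCC6 cetuximab replicates (24078.5 and 50156). The summed level of 9 squamous epithelial markers, in counts per 1000000 UMIs (CPM), was 6352 to 7090 with PBS and 10605 to 11206 with cetuximab in SCC1, 1585 to 2010 and 3315 to 3889 in SCC6, and 7782 to 13508 and 9976 to 15330 in SCC25. KRT17, a keratin of that list, rose across lines (1.25 ± 0.22, FDR 0.0149), and with the replicate block 6 of the 9 rose and 1 fell in SCC6. By contrast, endothelial markers stayed at or under 0.660 and immune markers at or under 13.6. The summed level of 6 fibroblast markers was 7.23 to 7.52 with PBS and 15.4 to 16.6 with cetuximab in SCC1, 1.13 to 3.33 and 23.0 to 27.2 in SCC6, and 19.8 to 41.1 and 44.4 to 82.9 in SCC25. Of these markers, COL3A1 and COL1A2 rose across lines, and 3 of the 6 rose with the replicate block (LUM in addition). Each was near the floor in 1 line. COL3A1 held 0 and 0 UMIs with PBS and 3 and 2 with cetuximab in SCC1, and COL1A2 0 and 1 and then 2 and 5 in SCC6. The part of either marker list in the results below was not tested.

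Cycling differed too. Cells were called low-cycling when the summed UMIs of 25 proliferation genes, at equal depth, were at or below the 33rd percentile of their line. Low-cycling cells made up 15.8% to 33.2% of cells in PBS samples and 36.2% to 70.6% in cetuximab samples, and in each line both cetuximab samples were above both PBS samples. A section on low-cycling cells gives each gene within that class.

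Levels are in CPM, the UMIs of a gene per 1000000 UMIs of the sample, with totals scaled by TMM factors (trimmed mean of M-values), which correct for a few abundant genes taking more of a library. Scaling to library size alone would raise treated levels relative to PBS by 0.23 on the log2 scale in SCC6 and by 0.05 and 0.03 in SCC1 and SCC25. UMI sums per sample were tested with the quasi-likelihood test of edgeR over 17897 genes, and all 10 genes passed its filter on low counts. A gene is said to have risen or fallen when its p-value, adjusted over all 17897 genes by Benjamini-Hochberg (FDR), was under 0.05. The labels do not say what a replicate number marks. Samples of equal number within a line were taken as pairs because they deviated together from their groups in these data. Values from a fit with the replicate number as a block are given where they change a call, and rest on that reading. These bulk sums cannot tell fewer cells with a transcript apart from less RNA per cell. A later section gives the share of cells with a UMI. For a gene with few UMIs per cell that share also rises with the mean level, so it does not settle this either.

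PIK3IP1 and TXNIP had the highest fitted changes across lines, and sequence around their starts is shown because one of the windows searched for each held a FOXO core motif. PIK3IP1 encodes a membrane protein that binds and restrains the catalytic subunit of PI3K. TXNIP encodes an arrestin-like protein that binds thioredoxin and limits glucose uptake. In RefSeq (GRCh38.p14), TXNIP lies on the minus strand of chromosome 1 from 145992435 to 145996579 and PIK3IP1 on the minus strand of chromosome 22 from 31281593 to 31292534. The motif searched was TGTTTAC, on both strands, from 250 bases before to 50 bases after each listed start. It was found in 3.42% of 35116 such windows and in 4.19% of genes. Among the 17 windows of the 10 genes it was found in 2, for TXNIP and PIK3IP1. The 250 bases before the TXNIP start, chr1:145996580-145996829, and the PIK3IP1 match with 10 bases on either side are given 5′ to 3′ on the gene's strand, with the motif (GTAAACA on the reverse strand in TXNIP) in capitals:
TXNIP promoter: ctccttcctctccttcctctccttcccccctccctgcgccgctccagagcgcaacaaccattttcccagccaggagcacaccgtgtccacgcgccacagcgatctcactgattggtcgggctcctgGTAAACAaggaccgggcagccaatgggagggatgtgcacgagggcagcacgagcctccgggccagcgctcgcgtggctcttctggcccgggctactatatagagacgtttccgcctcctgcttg
PIK3IP1 match: aaagagaggcTGTTTACcagaacagca
In TXNIP the motif began 124 bases before the start. In PIK3IP1 it lay 17 bases after the start of a shorter listed transcript, at chr22:31292466-31292472, and the window of the other start held none. The E-box CACGTG, 1 form of site bound by MondoA and related factors, was present in 7.26% of windows and 8.77% of genes. Here it was in those of IRS1 and CCNG2. Other forms of their sites were not searched, so windows without CACGTG, that of TXNIP among them, may hold such sites. A letter match is a description of the window, and binding was not measured here.

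**Figure D1:**
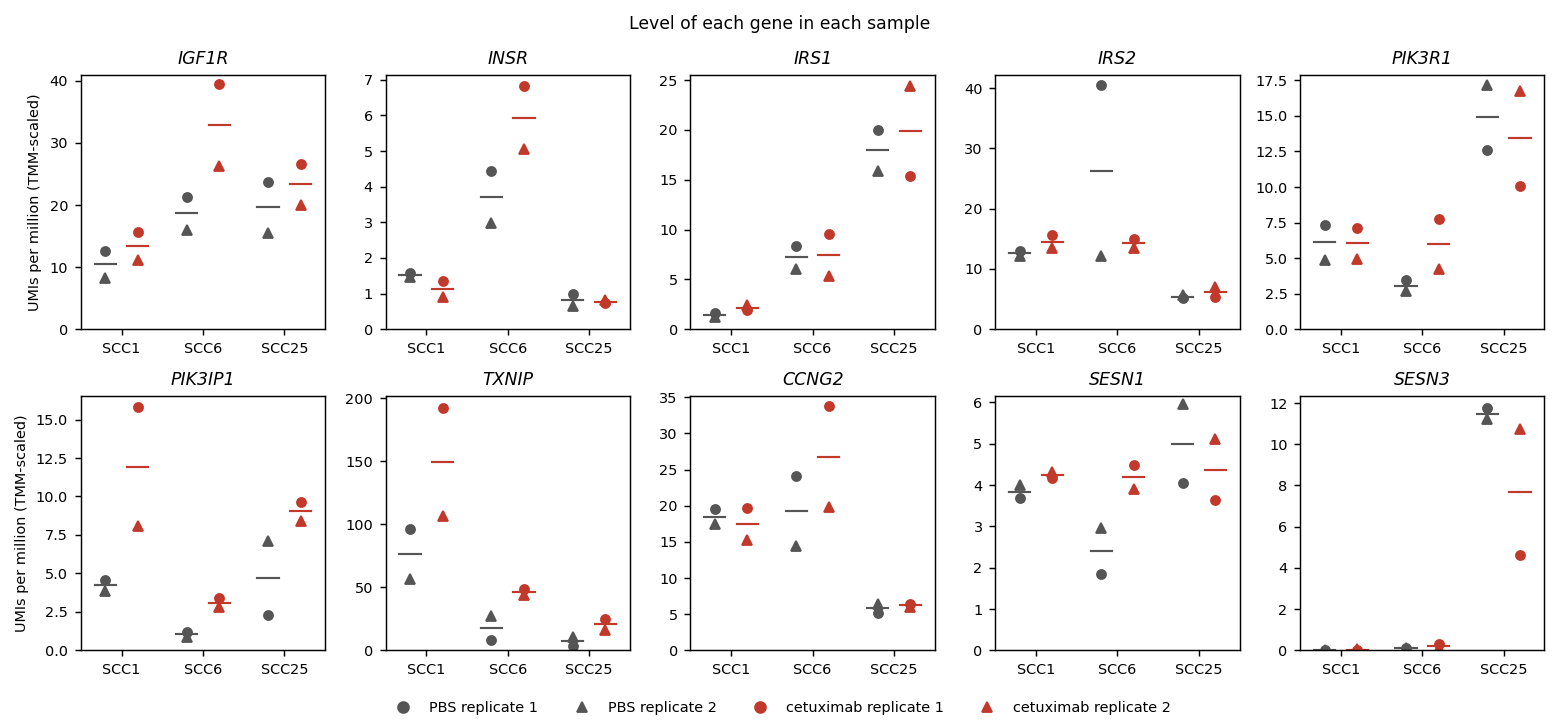
CPM (TMM-scaled, each axis from 0) of the 10 genes in the 12 samples, with PBS in grey, cetuximab in red, circles for replicate 1, triangles for replicate 2, and a bar at the mean of each pair of replicates. PIK3IP1 and TXNIP are the genes for which both cetuximab points lie above both PBS points in all 3 lines.

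The receptors gave different pictures. IGF1R, the receptor for IGF1 and IGF2, stood at 12.7 and 8.33 CPM in the SCC1 PBS replicates and at 15.7 and 11.2 with cetuximab. In SCC6 it was at 21.4 and 15.9 with PBS and at 39.5 and 26.3 with cetuximab, and in SCC25 at 23.8 and 15.6 and at 26.6 and 20.04. Replicate 1 was the higher one in all 6 groups, so that the PBS and cetuximab values overlapped in SCC1 and SCC25 although the cetuximab sample was higher in 6 of 6 pairs of equal line and number. The pair ratios ran from 1.12 (SCC25, replicate 1) to 1.85 (SCC6, replicate 1). Of all genes tested, 10.5% were higher in all 6 pairs, and of the 10 genes IGF1R, PIK3IP1 and TXNIP were. The effect of cetuximab on IGF1R across lines was 0.47 ± 0.19 (log2 fold change ± SE, FDR 0.171). With the replicate block it was 0.48 ± 0.11 and passed the test (FDR 0.0263), as did 11.6% of all genes. The call for IGF1R therefore depended on whether replicates of equal number were treated as pairs.

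INSR, the insulin receptor, was low in every sample. It stood at 1.57 and 1.48 CPM in SCC1 PBS and at 1.35 and 0.902 with cetuximab. In SCC6 the values were 4.43 and 2.99 with PBS and 6.84 and 5.04 with cetuximab, and in SCC25 0.984 and 0.661 against 0.742 and 0.810. The cetuximab samples were thus below those of PBS in SCC1, above them in SCC6 and among them in SCC25. None of these differences passed the test (log2 fold change of -0.44 ± 0.33 for SCC1, 0.68 ± 0.32 for SCC6 and -0.08 ± 0.33 for SCC25, with FDR 0.828, 0.265 and 1), and the effect across lines was 0.07 ± 0.22 (FDR 0.903).

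With all libraries in the fit, neither adaptor passed the test in any line or across lines. IRS1, which couples the receptors to PI3K, was at 1.61 and 1.22 in SCC1 PBS and at 1.91 and 2.39 with cetuximab, at 8.38 and 6.08 and then 9.56 and 5.35 in SCC6, and at 19.98 and 15.9 and then 15.3 and 24.4 in SCC25. Its level separated the lines far more than the treatments, being lowest in SCC1 and highest in SCC25. The groups overlapped in SCC6 and SCC25, and the effect across lines was 0.26 ± 0.19 (FDR 0.494). IRS2, a second adaptor and a textbook FOXO target, was at 13.04 and 12.2 in SCC1 PBS and at 15.6 and 13.4 with cetuximab, and in SCC25 at 5.16 and 5.69 and then 5.40 and 7.08. In SCC6 the PBS replicates stood at 40.5 and 12.2 and the cetuximab replicates at 15.1 and 13.4. One PBS library thus set the SCC6 value. The log2 fold change there was -0.89 ± 0.43 (FDR 0.281), and it became 0.22 (FDR 0.717) without SCC6 PBS replicate 1 and -1.51 (FDR 0.0166) without SCC6 PBS replicate 2. Across lines it was -0.16 ± 0.27 (FDR 0.791) and, without SCC6 PBS replicate 1, 0.21 (FDR 0.352). IRS2 was higher with cetuximab in 5 of 6 pairs, the pair of SCC6 PBS replicate 1 being the exception.

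The PI3K regulators were unlike each other. PIK3R1 encodes p85-alpha, the regulatory subunit that docks PI3K onto receptors and adaptors. Its levels were 7.36 and 4.86 in SCC1 PBS and 7.15 and 4.92 with cetuximab, and in SCC25 12.6 and 17.2 and then 10.1 and 16.7. In SCC6 they were 3.44 and 2.67 with PBS and 7.77 and 4.20 with cetuximab. Only in SCC6 did the treated samples lie above the PBS samples. The log2 fold change in SCC6 was 0.97 ± 0.38 (FDR 0.192), against -0.02 ± 0.38 for SCC1 and -0.15 ± 0.37 for SCC25, both with an FDR of 1. With the replicate block the SCC6 value was 0.92 ± 0.17 and passed the test (FDR 0.00987). The difference of the effect between lines did not pass it (FDR 0.806, and 0.0969 with the block).

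PIK3IP1 rose across lines. In SCC1 it stood at 4.57 and 3.89 CPM with PBS and at 15.8 and 8.08 with cetuximab. In SCC6 the values were 1.18 and 0.892 with PBS and 3.39 and 2.79 with cetuximab, and in SCC25 2.32 and 7.13 with PBS and 9.62 and 8.43 with cetuximab. No treated sample overlapped the PBS samples of its line. For SCC1 the ratios of the pairs were 3.46 and 2.08, for SCC6 2.87 and 3.12, and for SCC25 4.15 and 1.18, where PBS replicate 2 was close to the treated samples. The effect across lines was 1.33 ± 0.27 (FDR 0.0218), and 3.67% of all genes passed the test in this comparison, 2.53% as higher. It was the only one of the 10 genes to pass in the fit without a block, and with the block it was 1.38 ± 0.23 (FDR 0.0123). The call was near the threshold: the FDR was 0.0601 without SCC1 cetuximab replicate 1, 0.0664 without SCC1 PBS replicate 2, 0.0512 and 0.0525 without SCC6 cetuximab replicate 1 or 2, and 0.0509 and 0.0621 without SCC6 PBS replicate 1 or 2. The lowest and highest log2 fold changes with 1 library left out were 1.16 and 1.64. An antisense transcript, PIK3IP1-AS1, had 133 UMIs in all and no more than 0.230 CPM in any sample.

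Among the response genes, TXNIP followed a similar course. In SCC1 it was at 96.5 and 56.6 CPM with PBS and at 193 and 107 with cetuximab. In SCC6 it was at 8.29 and 27.3 and then at 48.5 and 44.0, and in SCC25 at 3.82 and 10.9 and then at 25.2 and 16.1. Treated and PBS samples did not overlap in any line, and the PBS replicates of SCC6 and SCC25 differed from each other more than the treated ones did from each other in ratio. TXNIP was highest in SCC1 under both treatments. The effect across lines was 1.28 ± 0.32 with an FDR of 0.0504, just short of the threshold, and 1.38 ± 0.31 with the replicate block (FDR 0.0285). With DESeq2 in place of edgeR, where 9.9% of all genes passed, the FDR was 0.00336.

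CCNG2, an unconventional cyclin linked to cell cycle arrest, did not follow TXNIP. Its levels were 19.6 and 17.4 in SCC1 PBS and 19.7 and 15.3 with cetuximab, and 5.19 and 6.41 and then 6.45 and 5.98 in SCC25. In SCC6 they were 24.1 and 14.4 with PBS and 33.8 and 19.8 with cetuximab. The groups overlapped in all 3 lines. The effect across lines was 0.17 ± 0.18 (FDR 0.649). In SCC6, where both pairs were higher with cetuximab (ratios of 1.40 and 1.38), the log2 fold change was 0.48 ± 0.31 (FDR 0.428), or 0.48 ± 0.14 with the block (FDR 0.0477).

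The sestrins are stress-induced inhibitors of mTORC1. SESN1 was at 3.68 and 3.99 in SCC1 PBS and at 4.18 and 4.32 with cetuximab, at 1.85 and 2.97 and then 4.49 and 3.89 in SCC6, and at 4.05 and 5.96 and then 3.64 and 5.11 in SCC25. Treated samples were above PBS samples in SCC1 and SCC6, while both SCC25 pairs were lower. The log2 fold change was 0.80 ± 0.30 in SCC6 (FDR 0.174, and 0.82 ± 0.23 with FDR 0.0363 under the block) and 0.25 ± 0.20 across lines (FDR 0.531). SESN3 was almost absent outside SCC25. SCC1 samples held 1 and 0 UMIs with PBS and 2 and 4 with cetuximab, too few for a fold change. SCC6 samples held 8 and 9 UMIs against 24 and 12 (1.16 ± 0.60, FDR 0.321). In SCC25 its level was 11.8 and 11.2 with PBS and 4.63 and 10.7 with cetuximab, and the treated samples lay below those of PBS there. The log2 fold change in SCC25 was -0.58 ± 0.42 (FDR 0.982).

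**Figure D2:**
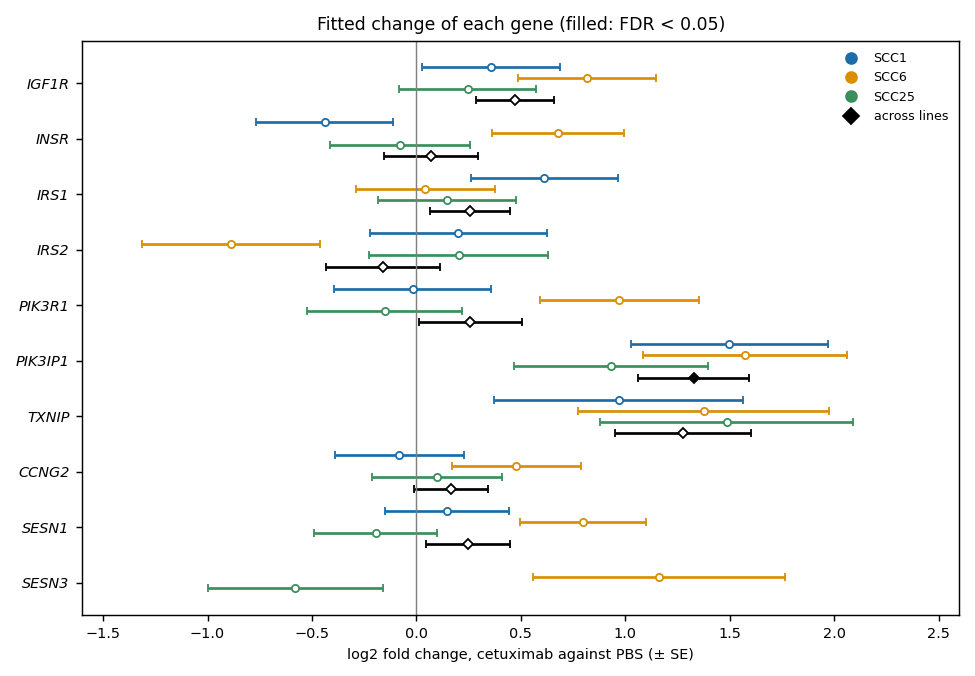
Fitted log2 fold change (horizontal axis, cetuximab against PBS, bars ± SE) of each gene in SCC1, SCC6, SCC25 and across lines, from the fit without a replicate block. Only the across-line value of PIK3IP1, 1.33, is filled (FDR under 0.05), and SESN3 is not drawn for SCC1 or across lines because SCC1 held 0 to 4 UMIs per sample.

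Within single lines, none of the 10 genes passed the test without the block. The lowest FDR came from PIK3IP1 in SCC1 (0.365) and SCC6 (0.106) and from TXNIP in SCC25 (0.797), and 1, 5 and 1 of the genes had an unadjusted p under 0.05, as did 8.77%, 19.9% and 5.82% of all genes. By FDR 0.0168% of all genes passed in SCC1, 3.81% in SCC6 and 0% in SCC25. With the block 5 of the 10 genes rose in SCC6: IGF1R (0.80 ± 0.13, FDR 0.00548), PIK3R1, PIK3IP1 (1.58 ± 0.41, FDR 0.0296), SESN1 and CCNG2. Of all genes, 20.1% passed in that fit, 9.94% as higher. When the replicate number was instead a block shared by all lines, IGF1R (FDR 0.00508) and SESN1 (FDR 0.0449) passed in SCC6, and PIK3R1 (FDR 0.0964), PIK3IP1 (FDR 0.0563) and CCNG2 (FDR 0.192) did not, while 13.8% of all genes passed. None of the 10 passed with the block in SCC1 or SCC25, where 4.45% and 0.978% of all genes did. With DESeq2 PIK3IP1 passed in SCC6 (FDR 0.0258), as did 9.28% of all genes.

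The count of genes whose replicates did not overlap is given beside that of all genes. Because the 10 genes were chosen with earlier results of these data known, a higher share than among all genes is not a test of the set. In SCC1, 6 of the 10 were higher with cetuximab without overlap, namely IRS1, IRS2, PIK3IP1, TXNIP, SESN1 and SESN3 (the last on 0 to 4 UMIs per sample), and 1 was lower (INSR), against 22.3% and 20.4% of all genes. In SCC6, 7 were higher (IGF1R, INSR, PIK3R1, PIK3IP1, TXNIP, SESN1 and SESN3) and 0 lower, against 25.5% and 21.4%. In SCC25, 2 were higher (PIK3IP1 and TXNIP) and 1 lower (SESN3), against 14.4% and 15.3%. With levels scaled to library size alone, a choice added after the data were seen, the counts of higher genes were 5, 7 and 3, against 24.7%, 37.4% and 16.3% of all genes, and none was lower, against 17.3%, 11.6% and 12.9%. The median log2 fold change of the 10 genes was 0.28 for SCC1, 0.81 for SCC6 and 0.12 for SCC25, against 0.0012, 0 and -0.0068 over all genes.

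The genes' responses were not shown to differ between lines. An F-test of the line by treatment interaction called 0 of the 10 genes and 0% of all genes with edgeR, where 1 of the 10 (SESN3, p 0.0416, FDR 0.654) and 1318 of all genes had an unadjusted p under 0.05. DESeq2 called 287 genes and the fit with the block 230 (1.29%), and none of the 10 was among them. With the block, PIK3R1, INSR, SESN1, IGF1R and SESN3 had an unadjusted p of 0.0032 to 0.0374 in this F-test (FDR 0.0969 to 0.240). The share of all genes under 0.05 was not counted for that fit. The larger number of calls in SCC6 is therefore not shown to be particular to that line.

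Low-cycling cells expressed most of these genes at higher levels than high-cycling cells of the same sample (those above the 67th percentile). Of 23063 cells at equal depth, 8090 were low-cycling and 7508 high-cycling, and 3304 cells lay within 2 UMIs of the lower limit and 869 within 2 of the upper one. Of all genes, 61.5% differed between these classes, 35.7% as higher in low-cycling cells. Of the 10 genes, 8 were higher in low-cycling cells, and INSR (0.14 ± 0.15, FDR 0.430) and CCNG2 (-0.02 ± 0.14, FDR 0.905) did not pass the test.

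PIK3IP1 differed most between the classes. Its level in low-cycling cells ranged from 1.95 to 19.5 CPM over the 12 samples, with a median of 7.68, and in high-cycling cells from 0.310 to 8.90, with a median of 2.38. It was higher in low-cycling cells in 12 of 12 samples, by 1.80 ± 0.19 on the log2 scale (FDR 2.8e-07). TXNIP ranged from 7.20 to 226 in low-cycling and from 2.59 to 122 in high-cycling cells and was higher in 11 of 12 samples, the exception being SCC6 PBS replicate 1 (0.97 ± 0.13, FDR 7.69e-06). SESN1 was higher in 12 of 12 samples by 0.41 ± 0.07 (FDR 0.000134), and PIK3R1 in 11 of 12 by 0.45 ± 0.08 (FDR 0.0002). IRS2 differed by 0.54 ± 0.10 (FDR 0.000231), IGF1R by 0.31 ± 0.08 (FDR 0.00388), IRS1 by 0.30 ± 0.08 (FDR 0.00448) and SESN3 by 0.84 ± 0.17 (FDR 0.000418), in 10, 9, 8 and 8 of 12 samples. IGF1R was lower in the low-cycling cells of 3 of the 4 SCC6 samples and higher in those of the other samples.

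**Figure D3:**
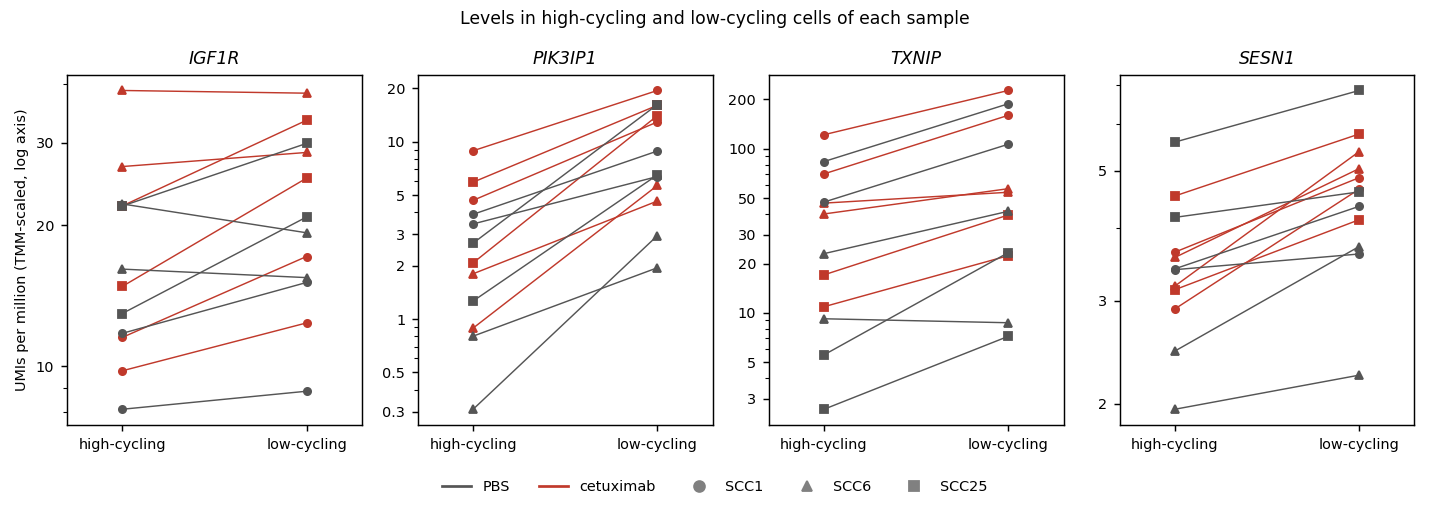
CPM (TMM-scaled, log axis) of 4 genes in high-cycling and low-cycling cells, with a line for each of the 12 samples, PBS in grey and cetuximab in red, and a marker for each cell line. All 12 lines rise for PIK3IP1 and SESN1, 11 for TXNIP and 9 for IGF1R.

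Since low-cycling cells were more frequent under cetuximab, the treatment was also compared within them. The class did not make cycling equal between treatments. Of the 25 proliferation genes, 5 fell within it, and 13 with the block. Their median log2 fold change was -0.59 there and -0.61 in all cells. In low-cycling cells PIK3IP1 was at 8.87 and 6.37 in SCC1 PBS and at 19.5 and 12.9 with cetuximab, at 1.95 and 2.96 and then 4.63 and 5.67 in SCC6, and at 6.50 and 16.2 and then 16.0 and 14.0 in SCC25. The treated samples were above those of PBS in SCC1 and SCC6, and the groups overlapped in SCC25. The effect across lines was 0.83 ± 0.23 (FDR 0.0702), and 0.87 ± 0.20 with the block (FDR 0.0299). TXNIP stood at 188 and 107 in SCC1 PBS and at 226 and 160 with cetuximab, at 8.71 and 41.6 and then 54.3 and 57.1 in SCC6, and at 7.20 and 23.3 and then 39.5 and 22.3 in SCC25. Only in SCC6 did the groups not overlap, and the effect was 0.85 ± 0.36 (FDR 0.225).

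IGF1R kept a similar size in low-cycling cells, at 0.49 ± 0.20 (FDR 0.198, or 0.0590 with the block), with SCC6 at 19.3 and 15.5 for PBS and 38.3 and 28.6 for cetuximab. The other effects there were 0.21 ± 0.25 for INSR, 0.05 ± 0.18 for IRS1, -0.49 ± 0.30 for IRS2 and 0.13 ± 0.23 for PIK3R1. They were 0.14 ± 0.15 for CCNG2, 0.27 ± 0.21 for SESN1 and -0.52 ± 0.38 for SESN3, which held 0 to 3 UMIs in SCC1. In SCC1, IRS2 was at 19.5 and 18.4 with PBS and at 15.7 and 15.8 with cetuximab, the reverse of its order in all cells. None of the 10 genes passed in low-cycling cells without the block, where 3.62% of all genes did, and 1 passed with it, where 8.97% did. The fitted change of PIK3IP1 and TXNIP was smaller here than in all cells, but the difference between these fits was not tested.

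The share of cells with a UMI was compared at equal depth, after thinning each cell to 15000 UMIs, which left out 14 to 262 shallower cells per sample. PIK3IP1 was found in 6.996% and 6.16% of SCC1 PBS cells and in 23.7% and 12.8% of treated ones, in 1.28% and 1.60% and then 4.55% and 4.82% in SCC6, and in 3.38% and 10.3% and then 13.3% and 12.7% in SCC25. The mean difference over lines was 7.02 percentage points (exact two-sided permutation test within lines, p 0.00926, the smallest that 216 arrangements can give). TXNIP was found in 63.5% and 49.8% of SCC1 PBS cells and 81.2% and 63.4% of treated ones, in 7.92% and 25.7% and then 43.2% and 42.8% in SCC6, and in 4.34% and 11.2% and then 20.7% and 16.8% in SCC25. The lower SCC1 treated sample was just below the higher PBS sample, and the mean difference was 17.6 points (exact permutation p 0.0185). Without thinning, PIK3IP1 was found in 19.0% of PBS and 42.1% of treated SCC1 cells, in 3.06% and 9.66% of SCC6 cells, and in 13.8% and 29.4% of SCC25 cells, and TXNIP in 80.1% and 89.6%, 33.2% and 65.5%, and 15.4% and 35.2% (group means).

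IGF1R was found in 16.2% ± 5.69 of SCC1 PBS cells and 20.8% ± 4.70 of treated ones (mean ± SD, n = 2), in 20.7% ± 3.15 and 36.6% ± 8.56 in SCC6 and in 24.9% ± 7.55 and 28.5% ± 4.73 in SCC25. The difference of 8.04 points had an exact permutation p of 0.0648, and 0.03125 when the signs of the 6 pairs were exchanged, the smallest that 64 arrangements can give. The other 7 genes had exact permutation p-values of 0.102 or more. The p-values of these 10 tests are not adjusted. The tests use the same UMIs as the sums, so they are not separate support for the changes above. The genes PTPRC, CD3E, ALB and HBB, which squamous cells should lack, were found in at most 0.183% of cells of any sample. None of the shares printed for PIK3IP1, TXNIP and IGF1R was at that background. SESN3 was, with at most 0.0823% of cells in SCC1 samples and 0.113% in SCC6 PBS samples.

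**Figure D4:**
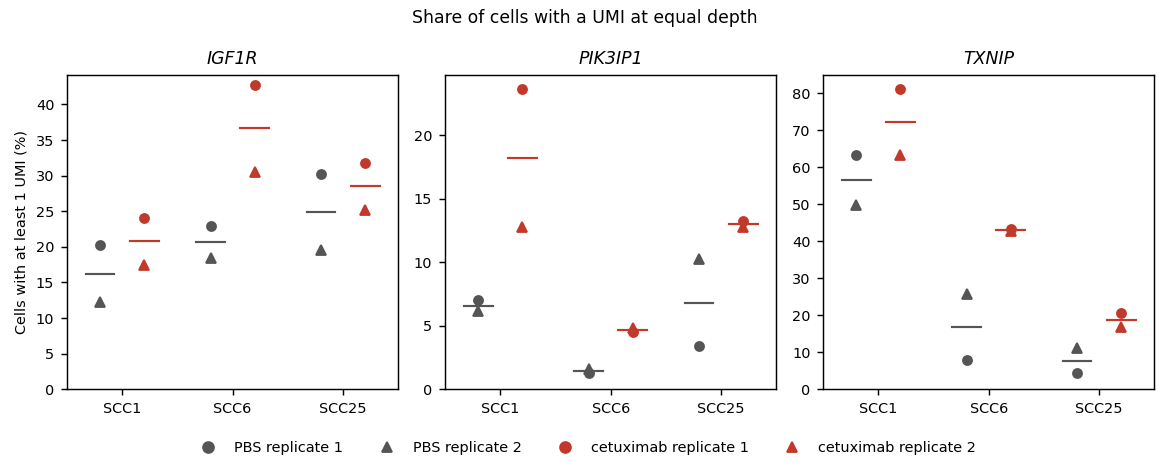
Share of cells (%, axis from 0) with at least 1 UMI of IGF1R, PIK3IP1 and TXNIP at 15000 UMIs per cell, with PBS in grey, cetuximab in red, circles for replicate 1, triangles for replicate 2 and a bar at the mean. For PIK3IP1 all cetuximab points lie above the PBS points of their line, while for IGF1R they overlap in SCC1 and SCC25.

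Other genes of the pathway mostly did not pass the test across lines. Of 35 genes of PI3K, AKT and mTOR complexes, 33 were tested. MLST8, a subunit of both mTOR complexes, fell by 0.50 (FDR 0.0449) and none rose, and the median log2 fold change was 0.03 against 0.01 for all genes. Calls added with the block included INPPL1 and GAB1 as higher and EIF4EBP1 as lower. Of the ligands and related receptors INS, IGF1, IGF2, IGF2R and INSRR, 2 had enough counts to be tested and none passed, while IGF2R, which clears IGF2, rose by 0.64 with the block (FDR 0.00738).

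Of the 4 FOXO factors none passed, at a median log2 fold change of 0.39, and FOXO1 rose with the block (0.69, FDR 0.0166). Of 29 other FOXO targets, 25 were tested and 1 rose, at a median of 0.01, equal to that of all genes. That gene was GABARAPL1, an autophagy gene of the ATG8 family. It ranged from 37.2 to 90.8 CPM over the PBS samples and from 89.8 to 188 over the cetuximab samples and was higher in 6 of 6 pairs (1.05 ± 0.17, FDR 0.0122). Within low-cycling cells GABARAPL1 rose as well (0.76, FDR 0.0119), FBXO32, which encodes a ubiquitin ligase subunit of muscle atrophy, fell by 0.91 (FDR 0.0300), and the median was -0.074 against 0.02 for all genes. FBXO32 was named to complete the count. With the block KLHL24 rose in addition (0.59, FDR 0.0383). In low-cycling against high-cycling cells, 20 of these 25 genes were higher and 3 lower.

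Lists on either side of the pathway gave the following counts. Of 11 arrestin and MondoA pathway genes, the family and regulators of TXNIP, none rose and ARRB2, which encodes beta-arrestin 2, fell by 0.76 (FDR 0.0321). With the block TXN2, the mitochondrial thioredoxin, fell as well. Of 15 p53 targets, a list given because p53 also induces SESN1, 4 rose: TP53I3 (1.04 ± 0.19, FDR 0.0166), TP53INP1 (1.34 ± 0.28, FDR 0.0243), CDKN1A (0.69 ± 0.14, FDR 0.0243) and ZMAT3 (0.68, FDR 0.0426). The first 3 were named by rule and ZMAT3 to complete the count. The median of the list was 0.09 against 0.01 for all genes. Within low-cycling cells 1 of the 15 rose, TP53I3 (0.98, FDR 0.0223), and the median was -0.02 against 0.02 for all genes. TP53INP1 (0.74, FDR 0.246) and CDKN1A (0.31, FDR 0.345) did not pass there. Across lines with the block, TIGAR rose and CCNG1 and FDXR fell in addition. Of 18 genes induced by mTORC1 output none passed, at a median of -0.31, and SREBF1 and PHGDH fell with the block. Of the 25 proliferation genes 2 fell (BUB1 and TPX2), 19 fell with the block, and the median was -0.61. The proliferation genes thus moved with the treatment in the same samples as PIK3IP1 and TXNIP, and they were also lower with cetuximab within low-cycling cells. Their part was not tested.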

How the data were processed

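The sample labels gave the line, treatment and replicate number. The deposited files held raw UMI counts per gene and cell, 1 table per line. The authors made them with Cell Ranger (GRCh38, both named in the submitters' processing notes) and Monocle. Sample membership came from the deposited cell table, and no column was left unused. All 23914 cells were used, with no doublet caller, and libraries shared at most 13 cell barcodes. Counts were added over 24 repeated symbols (33538 rows) and summed per sample, because cells are not replicates. Sums were fitted with edgeR 4.0.16 (R 4.3.3) with TMM factors, filterByExpr and a mean per group, or line and treatment for the effect across lines, and SE was log2 fold change over the root of F. DESeq2 1.42.0 was an alternative. Tests were two-sided and checked on simulated data, where many true changes within lines were missed. At a true log2 fold change of 1 in size, 7, 16 and 12 of 100 changed genes were recovered in SCC1, SCC6 and SCC25. Across lines it was 61 of 100. At a size of 2 the counts were 71 in each line and 97 across lines. Reads shared with near-identical genes, and strand, were handled in ways not given in the sources used here.

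Deviations of replicates of equal number correlated with r of 0.32 (SCC1), 0.313 (SCC6) and 0.571 (SCC25) over 17897 genes, so the numbers were taken to pair the samples, although the labels do not say what a number marks. The series description speaks of treatment in duplicate and the methods of sequencing in duplicate, so that SE and p-values may cover technical spread only. For shares, cells were thinned to 15000 UMIs, which left out 851 cells. Intervals at this depth, with at least 57057402 UMIs per sample, cover counting error only.

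The 10 genes and the gene lists were chosen with earlier results of these data known. From the other pathway lists the called genes were named, at most 3 per list by smallest p, and others are marked. Called markers of cell types were named outside this rule. Genes of similar pattern were the 2 with highest r to each gene at a mean of at least 10 CPM. TMM-scaled levels were adopted after the shift in SCC6 was seen. Protein sequences were not used here. One result of the pathway lists is not reported here.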

Additional observations from a re-analysis of the deposited data

How the results depend on the processing

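PIK3IP1, the gene called across lines, stayed higher in all alternatives run, and lost its call when any of the 6 libraries named above was left out. Of the 10 genes, the numbers passing across lines were 1 in the main fit, 2 with DESeq2, without a count filter and with thinned totals, and 3 with the replicate block in either form (within lines or shared). They were 1 instead of 0 in SCC1 without a filter, and in SCC6 1 with DESeq2, 1 without a filter, 5 with the block and 2 with the shared one. In low-cycling cells they were 3 without a filter, 1 with the block and 1 for cells up to the median. The block changed no call of the 10 genes beside those printed with the results. Without thinning, 5 shares of cells instead of 2 had p under 0.05. Leaving out 1 library gave 0 to 2 genes across lines, 0 in SCC1 and SCC25, 0 to 1 in SCC6 and in low-cycling cells, 8 in low-cycling against high-cycling cells and 2 to 4 shares.

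Over all genes, 656 passed across lines, against 2073 with the block, 1771 with DESeq2, 1043 without a filter and 202 to 596 with 1 library left out. The count was 3 in SCC1 (797 with the block, 271 with DESeq2, 243 without a filter), 682 in SCC6 (3589, 1660 and 1233, and 11 to 749 with 1 library left out), 0 in SCC25 (175, 101 and 128, where 1041 had an unadjusted p under 0.05) and 580 in low-cycling cells (1437 with the block, 1770 without a filter).

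Directions that turned were all of values that had not passed. They were PIK3R1 in SCC1 without a filter (0.000801), SESN3 across lines with the block (-0.011), CCNG2 in low-cycling against high-cycling cells with DESeq2 size factors (0.00676), INSR there with cells split at the median (-0.00868) and the IRS2 share without thinning (1.44 points). With 1 library left out, log2 fold changes that turned spanned -0.28 to 0.088 (CCNG2) and -0.32 to 0.30 (PIK3R1) in SCC1, and -0.43 to 0.39 (IRS1) and -1.51 to 0.22 (IRS2) in SCC6. In SCC25 they spanned -0.047 to 0.26 (CCNG2), -0.027 to 0.58 (IGF1R), -0.34 to 0.23 (INSR), -0.23 to 0.46 (IRS1), -0.00899 to 0.40 (IRS2), -0.56 to 0.18 (PIK3R1) and -0.46 to 0.11 (SESN1). Across lines they spanned -0.089 to 0.20 (INSR), -0.26 to 0.21 (IRS2) and -0.14 to 0.63 (SESN3), in low-cycling cells -0.070 to 0.17 (IRS1) and -0.036 to 0.26 (PIK3R1), and between cycling classes -0.10 to 0.069 (CCNG2). Shares spanned -4.49 to 2.65 (IRS2), -0.31 to 2.42 (PIK3R1) and -2.67 to 0.070 points (SESN3). The cause was not tested in any of these. Depth limits SESN3 in SCC1 and SCC6, where no sample held more than 24 UMIs.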

Other observations

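The genes whose levels ran most nearly parallel to each of the 10 were found over the 12 samples, as Pearson's r of log2(CPM + 1) after subtraction of the mean of each line, among about 7557 genes. The samples share libraries, treatment and cycling state, so these values are descriptions, and no p is given. PIK3IP1 ran closest to INAVA (r 0.94) and HLA-B (0.94), TXNIP to LMBR1L (0.93) and CST6 (0.92), and IGF1R to UTRN and VPS53 (both 0.99). The closest genes were ZMIZ1 (0.92) and FARP1 (0.92) for INSR, TMEM134 (0.90) and SASH1 (0.83) for IRS1, CITED4 (0.98) and ZNF205 (0.97) for IRS2, and RMND5B (0.90) and MEIS2 (0.90) for PIK3R1. They were ARNT (0.93) and ADD1 (0.90) for CCNG2, TSPAN10 (0.95) and CROT (0.94) for SESN1, and TMEM80 (0.92) and COL9A3 (0.91) for SESN3.

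Among the 10 genes themselves, the same measure was 0.84 for PIK3IP1 with TXNIP and 0.80 for INSR with CCNG2, and 0.75 for PIK3R1 with CCNG2. IRS2 with SESN1 had the lowest value, at -0.57, and IRS2 and TXNIP stood at -0.44.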
